A study of Mus musculus with 59 samples.

Results

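Digested uterus (DU) of control mice was compared between day 3.5 and day 0.5 after mating, with 3 libraries (mice 11, 14 and 16) against 4 (mice 1, 5, 8 and 9), which are 7 of the 59 RNA-seq libraries of the series. The samples were chosen by genotype, tissue and day as the labels give them, and no measured value entered the choice. All 7 females were Esr1f/- controls: they carry no Cre, and of their alleles of Esr1, the gene for oestrogen receptor α (ERα), 1 is floxed and 1 is null, so the controls themselves have a single working copy of the gene. Virgin females of about 2 to 6 months were paired with males of genotype Esr1f/f or of C57BL/6, both counted as wild type, the morning a plug was found was D0.5, and dissection fell at 11 to 12 h on D0.5 or D3.5. DU is a small piece of the slit uterine horns taken after 30 min in 0.5% dispase and before the luminal epithelium was scraped off, so it holds epithelium, glands, stroma, vessels and muscle. Each library is 1 mouse, and the RNA of all DU samples was isolated as 1 batch. Used for comparison were undigested uterus (U, 6 control mice at D0.5 and 5 at D3.5), scraped luminal epithelium (LE, 9 and 4 control mice), and DU of knockout mice (3 and 3), in which a Wnt7aCre transgene acts in the uterine epithelium (epiERa-/-, Esr1f/-Wnt7aCre/+).

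The mouse uterus passes from oestrogen to progesterone control between these days. On the morning after mating it is still under the influence of the preovulatory oestrogen surge, its epithelium grows and secretes, and white blood cells enter in response to the oestrogen and to semen. By the fourth day the new corpora lutea make progesterone, a small rise of oestrogen is near, the epithelium stops dividing and becomes ready for the blastocyst, and the stroma divides in its place. Indian hedgehog from the epithelium carries part of the progesterone signal to the stroma.

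The 7 libraries held 14053800 (mouse 11) to 46214396 (mouse 1) estimated counts, and 16194 of 21706 genes had enough counts to be tested. Levels are given in CPM, the counts of a gene relative to the library size, with sizes scaled by edgeR's TMM factors. They are listed in the order of mice 1, 5, 8 and 9 at D0.5 and mice 11, 14 and 16 at D3.5. A gene was called when edgeR's quasi-likelihood test gave an adjusted p (Benjamini-Hochberg, over all tested genes) below 0.05. Changes are log2 fold changes of D3.5 over D0.5 with the standard error (SE). Replicate libraries of 1 group differed beyond counting noise in each pair, so each counted as its own sample.

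Among D0.5 mice, mouse 1 was the lowest in the neutrophil marker list, 11 genes, which summed in it to 3085 CPM against 7513 to 9778 CPM in mice 5, 8 and 9. Most of each sum was Ltf, lactoferrin, which the epithelium also makes. Ltf was at 3003 CPM in mouse 1 and 6973 to 9410 CPM in mice 5, 8 and 9. Without mouse 1, 5772 genes were called, and 5087 of the 5573 genes called with it were among them. Mouse 11 at D3.5 had the highest Fos, Fosb and Egr1 of its group.

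By D3.5, 5573 genes were called (34.4% of those tested), 2574 higher (15.9%) and 2999 lower (18.5%). Of them, 2824 (17.4%) changed at least 2-fold, 1068 higher (6.6%) and 1756 lower (10.8%). In 21% of all tested genes each D3.5 library lay above each D0.5 library, and in 20.7% each lay below. The median log2 fold change of all tested genes was -0.002. On log2(TPM + 1) values tested with limma the median was 0.17 higher, and 63.7% of 5582 called genes were higher, against 46.2% here. Group medians are to be read against that shift. Counts of called list members are to be read against the 15.9% higher and 18.5% lower of all tested genes. The plot of all gene levels shows that the furthest points lie below the diagonal, where genes of the D0.5 uterus reach 0 counts at D3.5.

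**Figure D1:**
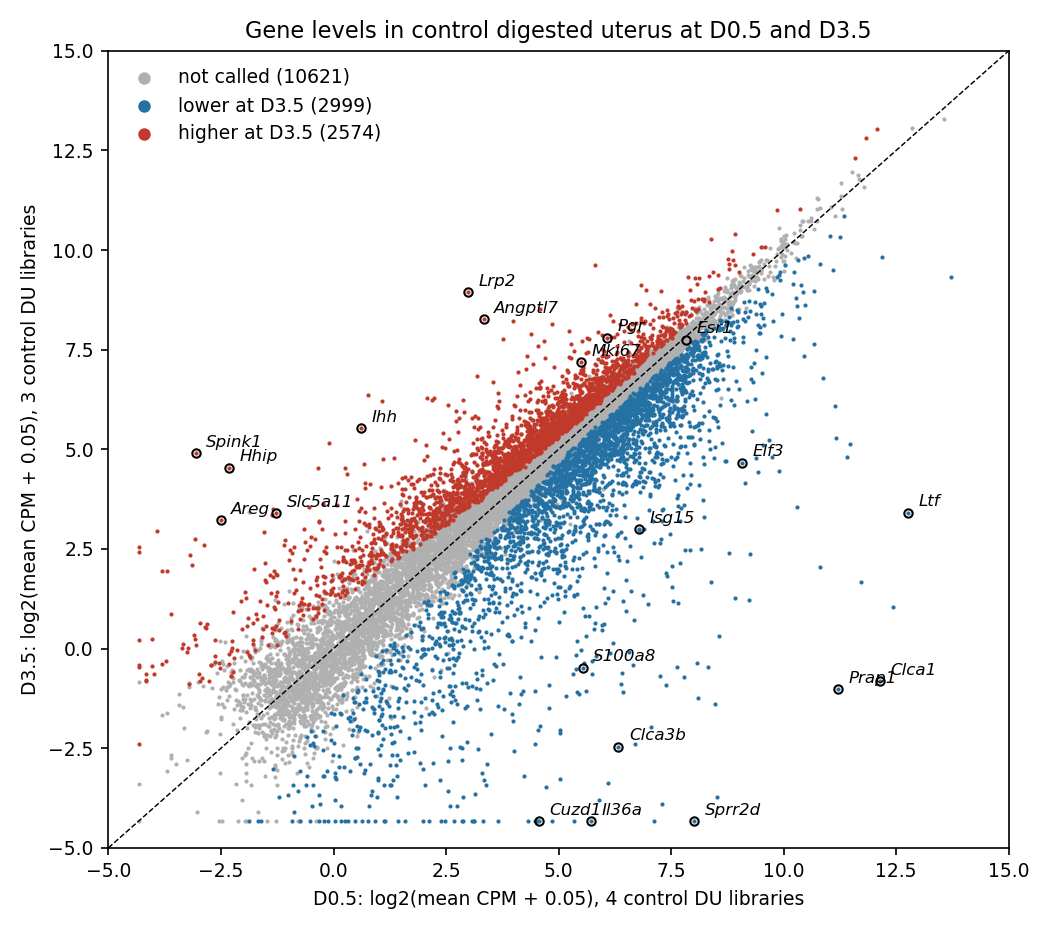
Mean level of each of the 16194 tested genes in control digested uterus, as log2(mean CPM + 0.05), at D0.5 (x axis, 4 libraries) and D3.5 (y axis, 3 libraries), with called genes coloured by direction. The 2574 higher and 2999 lower genes lie on either side of the diagonal, and the longest distances are those of genes such as Clca1 and Sprr2d that were lower at D3.5.

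The gene for ERα itself changed less than its spread between mice. Esr1 was at 281, 236, 204 and 194 CPM at D0.5 and 229, 211 and 206 CPM at D3.5, and the groups overlapped. Their means were 228.5 ± 39.3 (SD, n = 4) and 215.3 ± 11.9 CPM (SD, n = 3), and a two-sided exact permutation test of mean log2 CPM gave p = 0.714, where the smallest p this design allows is 0.0286. The knockout DU libraries held 139 to 186 CPM of Esr1 and the Cre acts in epithelium, so stroma and muscle keep the gene by design. The direction of the small control difference turned to 0.0844 on the log2 scale with deposited TPM values in place of CPM (exact permutation p = 0.629).

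Pgr, the progesterone receptor and itself a target of ERα, rose. It was at 66.4, 71.5, 58.5 and 72.1 CPM at D0.5 and 246, 189 and 233 CPM at D3.5. Every D3.5 library lay above every D0.5 library (log2 fold change 1.73 ± 0.20 SE, adjusted p = 2.3e-05). Of 13 tested receptors and cofactors of steroid signalling, 6 rose and 1 fell, with a median of 0.29. Fkbp5, a chaperone of steroid receptors and a common glucocorticoid and progesterone target, was at 11, 27.5, 12.2 and 32.2 CPM at D0.5 and 56.3, 65.8 and 62.9 CPM at D3.5. Ncoa3, a receptor coactivator, fell (log2 fold change -0.60 ± 0.11).

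Among single genes, the 12 with the highest fold change were taken from called genes with at least 10 CPM. Groups that did not overlap were a condition of this choice, and predicted or clone names were left out. The 12 were Spink1, Hhip, Lrp2, Rims3, Krt83, Syn2, Abcb5, Angptl7, Fam83a, Pla2g10, Ihh and Slc5a11. Spink1, a secreted trypsin inhibitor of the uterine glands, was at 0.28, 0, 0 and 0 CPM at D0.5 and 31.3, 34.4 and 24.1 CPM at D3.5. It was absent from 3 of the 4 D0.5 libraries and present in each D3.5 library (log2 fold change 7.88 ± 1.09 SE, adjusted p = 0.0001). Lrp2, megalin, a large endocytic receptor of epithelia, was at 11.6, 10.3, 3.73 and 5.99 CPM at D0.5 and 408, 434 and 634 CPM at D3.5. Its log2 fold change was 5.94 ± 0.35 SE (adjusted p = 1.2e-07). Rims3, a synaptic scaffold gene, was at 2.11, 1.64, 1.38 and 1.48 CPM at D0.5 and 70.0, 96.8 and 80.1 CPM at D3.5. Its groups were tight, and its adjusted p was the lowest of all genes (log2 fold change 5.60 ± 0.20 SE, adjusted p = 3.7e-09). Angptl7, an angiopoietin-like secreted protein, was at 16, 10.1, 2.45 and 11.9 CPM at D0.5 and 271, 428 and 229 CPM at D3.5. The log2 fold change was 4.92 ± 0.53 SE (adjusted p = 1.4e-05).

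Under the same conditions, the 12 lowest fitted values were those of Sprr2d, Sprr2a3, Il36a, Chil1, Clca1, Uox, Prap1, Upk3bl, Sprr2b, Cuzd1, Atp13a4 and Wfdc16. Of these, 8 had 0 counts at D3.5, so their place depends on the count that the model adds. With genes at 0 set to a floor of 3 counts over the D3.5 group, Upk3bl, Cuzd1, Atp13a4 and Wfdc16 had log2 folds of -9.56, -9.27, -9.23 and -9.22, and Lcn2 (-11.43) and Muc4 (-10.05), outside the 12, lay below them. Clca1, a secreted protein of mucous cells, was at 4132, 4072, 6779 and 3032 CPM at D0.5 and 0.515, 0.297 and 0.739 CPM at D3.5. It was among the high genes of each D0.5 library and close to 0 in each D3.5 library (log2 fold change -13.00 ± 1.40 SE, adjusted p = 1.4e-05). Prap1, an oestrogen-responsive secreted protein of uterine epithelium, was at 2839, 2177, 2489.8 and 2009.6 CPM at D0.5 and 1.09, 0 and 0.229 CPM at D3.5. Its log2 fold change was -12.70 ± 0.97 SE (adjusted p = 7.5e-07). Il36a, an epithelial interleukin of the IL-1 family, was at 20.9, 41.7, 111 and 37.4 CPM at D0.5 and 0 in each of the 3 libraries at D3.5. Against a floor of 3 counts over the D3.5 group it was at least 1376-fold lower. Uox, urate oxidase, was at 27.9, 49.6, 58.4 and 27 CPM at D0.5 and 0 in each of the 3 libraries at D3.5, which is at least 1063-fold lower by the same floor. Chil1, a chitinase-like secreted protein, had 94.8, 279, 727 and 372 CPM at D0.5 and 3 counts in the whole D3.5 group, a ratio of 9613 with a 95% counting interval of 3289 to 46610. Sprr2 genes are near-identical neighbours, so reads could be split among them, and Clca and Chil genes also have close relatives.

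Epithelial marker genes fell as a group. Of 15 tested markers of luminal and general epithelium, 14 fell and none rose, with a median of -2.61. Elf3, an epithelial transcription factor of the ETS family, was at 508, 679.8, 589.9 and 380.1 CPM at D0.5 and 21.2, 25.8 and 28.8 CPM at D3.5. Each D3.5 library held a small fraction of the lowest D0.5 value (log2 fold change -4.41 ± 0.28 SE, adjusted p = 2.3e-07). Cdh1, E-cadherin, which joins epithelial cells, was at 432, 431, 523 and 339 CPM at D0.5 and 94.7, 166 and 149.8 CPM at D3.5. It fell much less (log2 fold change -1.65 ± 0.19 SE, adjusted p = 2.8e-05), and Cldn3, a claudin of tight junctions, was at 147, 185, 219 and 147 CPM at D0.5 and 97.4, 189 and 186 CPM at D3.5 with overlapping groups. The markers therefore fell by unequal amounts. Summed over the list, the level was 5471 to 7961 CPM in the D0.5 libraries and 694 to 1182 CPM in the D3.5 libraries, with no marker at 0. In such pieces of tissue, fewer cells of a type and less RNA per cell cannot be told apart. The same holds for every gene group below, whether of epithelium, vessels, white blood cells or cell division. How far the shares of cells enter them was not tested. The dispase step and the cutting of the piece also stand before these values. In undigested uterus the same 15 genes had a median of -2.66, with 14 of 15 falling.

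Several markers of the uterine glands moved the other way. Of 7 tested, 4 rose and none fell, with a median of 0.90. Sox17, 1 of the 4, was called although its groups overlapped (log2 fold change 0.90 ± 0.28 SE). It lost its call without mouse 5, 8, 9, 14 or 16. Cxcl15, a chemokine made by the glands, was at 8.01, 3.47, 0.46 and 3.97 CPM at D0.5 and 21.2, 38.8 and 19.7 CPM at D3.5. All 3 D3.5 libraries were higher (log2 fold change 2.70 ± 0.65 SE, adjusted p = 0.0059). Wfdc3, a secreted protease inhibitor, was at 0.28, 1.37, 0.562 and 1.01 CPM at D0.5 and 11.1, 14.7 and 11.1 CPM at D3.5. Its groups did not overlap (log2 fold change 3.99 ± 0.63 SE, adjusted p = 0.00029). Foxa2, the transcription factor that defines gland cells, was at 14.9, 6.74, 9.71 and 8.24 CPM at D0.5 and 8.3, 19.9 and 8.31 CPM at D3.5, with overlap and no call (adjusted p = 0.64). The gland proteases Prss28 and Prss29 had too few counts to be tested. In scraped LE 4 of 7 tested members of this list rose and 0 fell (median 3.33), so the list does not separate glands from luminal epithelium here. In knockout DU 3 rose and 2 fell (median 0.47).

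**Figure D2:**
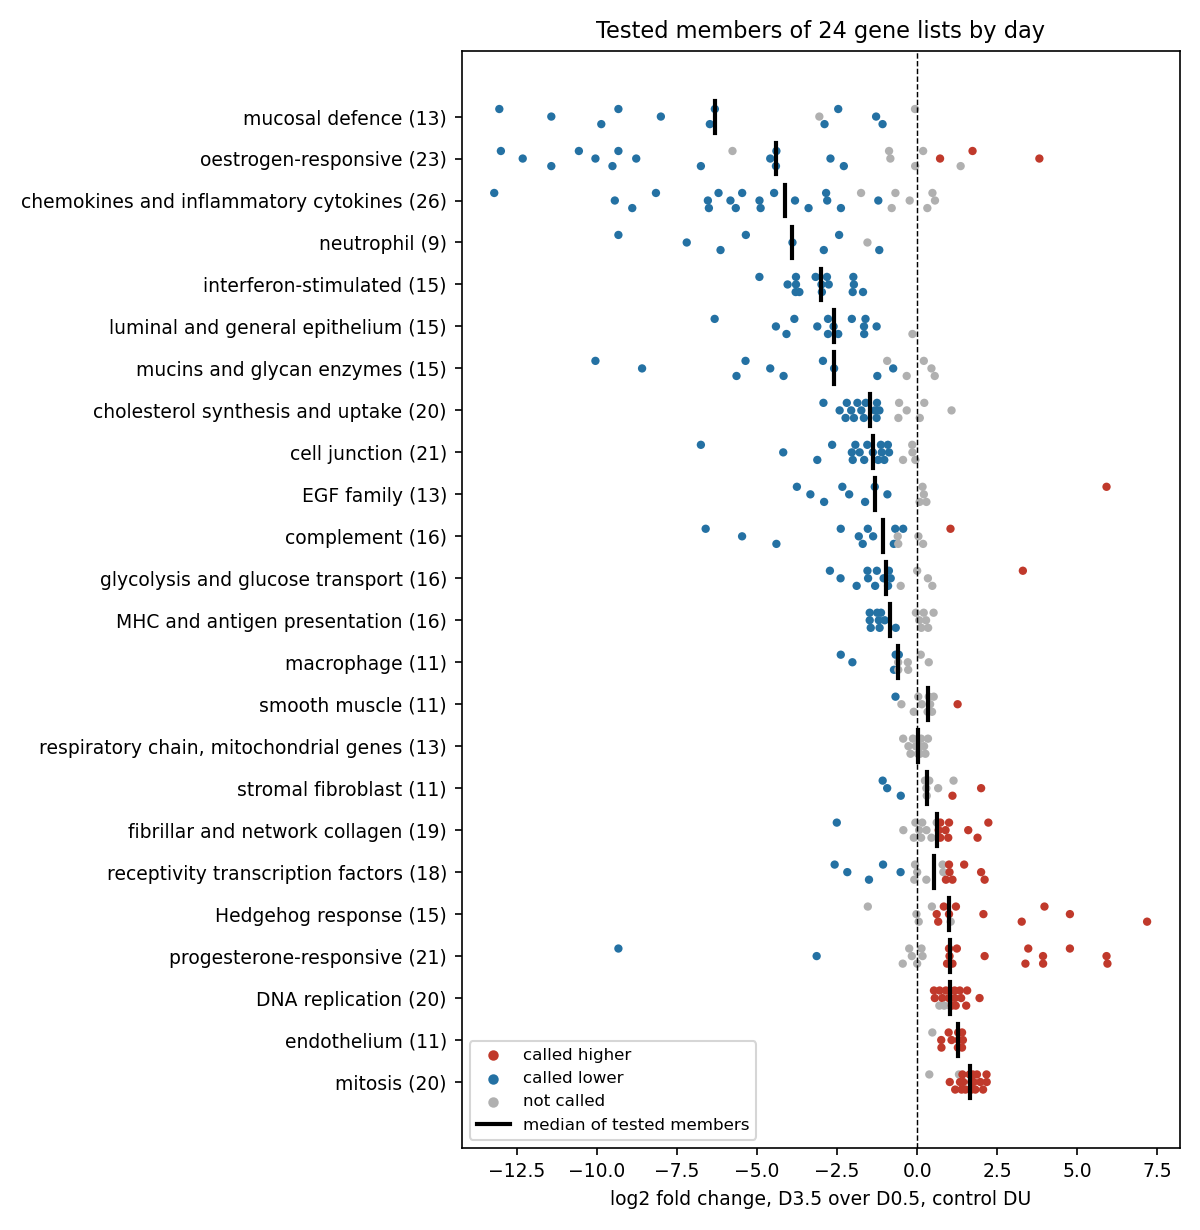
Log2 fold change of D3.5 over D0.5 (x axis) for each tested member of 24 gene lists (y axis, number tested in brackets), coloured by call, with the median of each list as a black bar. The medians run from -6.32 for mucosal defence to 1.66 for mitosis, and 14 of the 15 epithelial markers lie to the left with a call.

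Classical oestrogen-responsive genes of the uterus were lower at D3.5. Of 23 tested, 14 fell and 3 rose, with a median of -4.41. Ltf, lactoferrin, the best known oestrogen-induced secretion of mouse uterine epithelium, was at 3003, 6973, 9410.2 and 8340.0 CPM at D0.5 and 4.63, 9.84 and 17.2 CPM at D3.5. The groups were far apart (log2 fold change -9.33 ± 1.31 SE, adjusted p = 0.00012). Muc1, a membrane mucin of the epithelial surface, was at 463, 738, 765 and 696 CPM at D0.5 and 20.8, 34.2 and 27.7 CPM at D3.5. It too was lower in each D3.5 library (log2 fold change -4.59 ± 0.25 SE, adjusted p = 6.8e-08). Padi1, which turns arginine into citrulline in proteins, was at 779, 1026, 645 and 518 CPM at D0.5 and 28.1, 15.1 and 60.9 CPM at D3.5. Mouse 16 was the highest of the D3.5 group and still far below D0.5 (log2 fold change -4.41 ± 0.63 SE, adjusted p = 0.00014). Padi2 was at 496, 68.3, 60.4 and 39.2 CPM at D0.5 and 28.5, 28.2 and 45.2 CPM at D3.5, with mouse 1 far above all others, and the groups overlapped although the gene was called (adjusted p = 0.028). The genes of the list that rose were Pgr, Igf1 and Alox15, a lipoxygenase. Igf1, the insulin-like growth factor of uterine stroma, was at 59.6, 48.4, 41.4 and 73.4 CPM at D0.5 and 818, 907 and 631 CPM at D3.5. Each D3.5 library was many times above each D0.5 library (log2 fold change 3.82 ± 0.22 SE, adjusted p = 9.3e-08). Greb1, a further ERα target, was at 58.4, 32.9, 13.8 and 20.3 CPM at D0.5 and 40.5, 24.5 and 42.6 CPM at D3.5 with overlapping groups.

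Mucus and surface defence fell with them. Of 13 tested mucosal defence genes, 11 fell and none rose (median -6.32), and of 15 mucins and glycan enzymes 10 fell and none rose (median -2.59). Lcn2, which binds bacterial siderophores, was at 2047, 5592, 8210.1 and 6330.5 CPM at D0.5 and 2.7, 0.764 and 2.57 CPM at D3.5. The D3.5 level was near 0 (log2 fold change -11.43 ± 0.83 SE, adjusted p = 5.8e-07). Pigr, the receptor that carries antibodies across epithelium, was at 1519, 3234, 3415 and 3148 CPM at D0.5 and 20.9, 42.9 and 42.2 CPM at D3.5. Mouse 1 had the lowest D0.5 value, yet the groups stayed apart (log2 fold change -6.32 ± 0.52 SE, adjusted p = 1.6e-06). Muc4, a membrane mucin, was at 2154, 4102, 4581 and 2689.5 CPM at D0.5 and 2.57, 2.84 and 3.98 CPM at D3.5. The lowest D0.5 library was far above the highest at D3.5 (log2 fold change -10.05 ± 0.51 SE, adjusted p = 4.4e-08). Muc20, a smaller membrane mucin, fell (log2 fold change -8.59 ± 0.38), and Fut9 and Galnt3, which build sugar chains, fell as well (-5.36 ± 0.28 and -4.17 ± 0.35). Slpi, a secreted protease inhibitor, was at 13.4, 31.8, 31.9 and 26 CPM at D0.5 and 17.4, 28.1 and 27.9 CPM at D3.5 and was not called. Chil3 and Saa3 varied widely at D0.5: Saa3, an acute-phase protein from a family of close relatives, was at 5.87, 1004, 109 and 1273 CPM at D0.5 and 1.99, 2.12 and 2.73 CPM at D3.5, with mouse 1 near the D3.5 level.

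Junction and transport genes showed the same direction with smaller steps. Of 21 tested junction genes 17 fell and none rose (median -1.38). Gjb2, connexin 26, was at 93.6, 131, 77.2 and 77.9 CPM at D0.5 and 0.9, 1.06 and 0.713 CPM at D3.5. Each D3.5 library had about 1 CPM or less (log2 fold change -6.76 ± 0.49 SE, adjusted p = 5.8e-07). Tjp3, a tight junction scaffold, fell (log2 fold change -4.18 ± 0.30) and so did Dsg2, a desmosomal cadherin (-2.01 ± 0.19), while Tjp1 was at 235, 223, 239.8 and 207 CPM at D0.5 and 221, 211 and 221 CPM at D3.5 with overlapping groups. Of 21 water and ion transport genes, 10 fell and 1 rose (median -0.84), and 3 rose without mouse 1. Cftr, the chloride channel, was at 59.6, 114, 69.2 and 39.4 CPM at D0.5 and 0.707, 0.509 and 1.43 CPM at D3.5. Slc26a9, an anion channel that works beside it, was at 49.8, 159, 88.5 and 49.8 CPM at D0.5 and 0.386, 0.127 and 0.739 CPM at D3.5. Both were lower in each D3.5 mouse (adjusted p = 1.2e-05 and 9.9e-06). Ano1, a calcium-gated chloride channel of smooth muscle and interstitial cells, was the gene that rose, at 45.7, 49.1, 45.7 and 44.5 CPM at D0.5 and 138, 123 and 135 CPM at D3.5 (log2 fold change 1.51 ± 0.12 SE, adjusted p = 1.1e-06). Fxyd4, a small membrane protein that adjusts ion transport, fell (log2 fold change -1.67 ± 0.26). Scnn1a, a subunit of the epithelial sodium channel, was at 8.87, 5.36, 6.39 and 8.01 CPM at D0.5 and 6.24, 6.62 and 9.48 CPM at D3.5 and was not called.

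Neutrophil markers were lower, and markers of other white blood cells were less uniform. Of 9 tested neutrophil markers 8 fell and none rose, with a median of -3.89. S100a8, a subunit of calprotectin in neutrophils, was at 1.08, 57.6, 45.6 and 80.8 CPM at D0.5 and 0.836, 0.552 and 0.612 CPM at D3.5. Mouse 1 sat near the D3.5 level, and the other 3 D0.5 mice were far above (log2 fold change -6.14 ± 1.15 SE, adjusted p = 0.0011). Csf3r, the receptor for the neutrophil growth factor, was at 13.4, 229.6, 85.3 and 215 CPM at D0.5 and 10.2, 7.85 and 9.38 CPM at D3.5. Mouse 1 was again the lowest of its day (log2 fold change -3.89 ± 0.72 SE, adjusted p = 0.001). The list summed to 3085 to 9778 CPM at D0.5, most of it Ltf, which the epithelium also makes. At D3.5 it summed to 55.6 to 63.8 CPM, of which Ltf was 4.63 to 17.2 CPM. Elane had no counts on either day. Without mouse 1, 8 of 9 fell with a median of -4.28. Of 11 macrophage markers 5 fell and none rose (median -0.59), 7 fell without mouse 1 or 16, and 3 without mouse 8, 11 or 14. Cd68, a lysosomal protein of macrophages, had the largest fall of the list (-2.39 ± 0.18), and Adgre1, the F4/80 antigen of mouse macrophages, was at 82.2, 104, 126 and 120.0 CPM at D0.5 and 54.5, 64.6 and 76.7 CPM at D3.5 (log2 fold change -0.72 ± 0.16 SE, adjusted p = 0.0039). Mrc1, the mannose receptor of resident macrophages, was at 90.6, 75.5, 147 and 110.2 CPM at D0.5 and 113, 107 and 123 CPM at D3.5 and overlapped. Of 11 lymphocyte and natural killer cell genes 1 rose and none fell, that gene being Cd79a of B cells (0.90 ± 0.30), whose call was lost without mouse 1, 5, 8, 14 or 16. Of 8 dendritic cell genes 2 rose (Clec9a and Zbtb46) and 1 fell, with 1 rising without mouse 8, 9, 11 or 16. The gene that fell, Ccr7, which guides such cells to lymph nodes, was at 0.968, 14.3, 7.1 and 8.36 CPM at D0.5 and 0.386, 0.339 and 0.764 CPM at D3.5, with mouse 1 low at D0.5. Of 9 eosinophil and mast cell genes 1 rose and 2 fell (median 0.43). Kit, the stem cell factor receptor of mast cells, was at 53.3, 44.7, 64.7 and 51.7 CPM at D0.5 and 76.1, 86.3 and 76.9 CPM at D3.5 and rose, a call that was lost without mouse 14. Ccr3, the eotaxin receptor of eosinophils, fell (-0.97 ± 0.23), as did Siglecf, an eosinophil lectin (-1.41 ± 0.38), and 1 gene fell without mouse 16.

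Chemokines and cytokines fell as well. Of 26 tested, 19 fell and none rose, with a median of -4.14. Cxcl5, a neutrophil attractant of epithelia, was at 51.5, 159, 351 and 236 CPM at D0.5 and 0.322, 1.15 and 0.561 CPM at D3.5. The lowest D0.5 value was far above the highest D3.5 value (log2 fold change -8.16 ± 0.75 SE, adjusted p = 3.8e-06). Csf3, the neutrophil growth factor G-CSF, was at 162, 71.9, 116 and 58 CPM at D0.5 and 0.643, 0.806 and 3.36 CPM at D3.5. Here mouse 1 had the highest value of its day (log2 fold change -5.83 ± 0.65 SE, adjusted p = 1.8e-05). Ccl28, a mucosal chemokine, was at 106, 261, 177 and 188 CPM at D0.5 and 3.92, 5.77 and 2.8 CPM at D3.5. Cxcl17, another mucosal chemokine, was at 238, 321, 341 and 250.5 CPM at D0.5 and 3.54, 5.9 and 7.24 CPM at D3.5. Both were apart between days (adjusted p = 1.4e-05 and 1.2e-07). Il1b, made by stimulated macrophages and neutrophils, was at 12.8, 51, 107.9 and 43.7 CPM at D0.5 and 0.772, 0.976 and 0.51 CPM at D3.5 (log2 fold change -6.20 ± 0.70 SE, adjusted p = 2e-05). Cxcl12 of the stroma was at 159.7, 169, 156 and 253 CPM at D0.5 and 265, 262 and 243 CPM at D3.5 and Il15, which supports natural killer cells, at 4.76, 9.35, 6.95 and 8.84 CPM at D0.5 and 10.2, 10.0 and 12.6 CPM at D3.5, neither called. Of 16 complement genes 11 fell and 1, Masp1, rose (median -1.05), and Masp1 lost its call without mouse 5, 9, 14 or 16. C3, the central component and a known oestrogen target in the uterus, was at 9148, 14494, 16980.0 and 12888 CPM at D0.5 and 619, 508 and 778 CPM at D3.5 (log2 fold change -4.40 ± 0.31 SE, adjusted p = 5.3e-07), and Cfb, factor B of the alternative pathway, was at 1460.4, 2625, 4017 and 2741 CPM at D0.5 and 23, 22.5 and 37.8 CPM at D3.5 (log2 fold change -6.61 ± 0.48 SE, adjusted p = 5.6e-07).

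All 15 tested interferon-stimulated genes fell, with a median of -2.99, and in each of the 15 the libraries of the 2 days did not overlap. Isg15, a ubiquitin-like protein induced by interferon, was at 39.9, 134, 127 and 143 CPM at D0.5 and 8.36, 4.37 and 11 CPM at D3.5. Mouse 1 was the lowest D0.5 mouse by a wide margin (log2 fold change -3.79 ± 0.57 SE, adjusted p = 0.0002). Ifit3, which acts against viral RNA, was at 157, 421, 266 and 361 CPM at D0.5 and 9.39, 8.61 and 11.5 CPM at D3.5 (log2 fold change -4.93 ± 0.67 SE, adjusted p = 8.8e-05). Irf7, a transcription factor of the interferon response, was at 138, 309, 281 and 243 CPM at D0.5 and 16.3, 16.1 and 20.3 CPM at D3.5 (log2 fold change -3.78 ± 0.33 SE, adjusted p = 2.5e-06). Without mouse 1 the 15 genes still fell, with a median of -3.16. Promoters of list members were read from RefSeq's table for assembly GRCm38.p6, which held 565 of the 788 list genes and 27025 promoters of 300 bases (250 before the start site and 50 after). The interferon response element was searched as GAAA, any 2 bases and GAAA, on both strands, overlaps allowed. It lay in 7 of the 12 interferon-stimulated promoters found (58.3%) and in 3.49% of all promoters. The 250 bases before the start sites of Isg15 (chr4:156200819-156201068, minus strand) and Ifit3 (chr19:34583279-34583528, plus strand) are printed because they show the element found in those 7 promoters. Capitals mark it, read as TTTC, 2 bases and TTTC where it lies on the other strand.
Isg15: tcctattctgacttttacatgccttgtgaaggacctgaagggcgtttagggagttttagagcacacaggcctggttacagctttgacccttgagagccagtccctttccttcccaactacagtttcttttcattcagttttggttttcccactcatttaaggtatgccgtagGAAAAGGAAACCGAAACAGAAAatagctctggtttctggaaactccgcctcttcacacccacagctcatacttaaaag
Ifit3: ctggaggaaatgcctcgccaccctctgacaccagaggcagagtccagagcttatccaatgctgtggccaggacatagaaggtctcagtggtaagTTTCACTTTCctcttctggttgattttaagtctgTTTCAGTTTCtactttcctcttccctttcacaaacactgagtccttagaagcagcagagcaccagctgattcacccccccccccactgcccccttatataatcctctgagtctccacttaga
In Isg15 overlapping copies begin 78, 72 and 66 bases before the start site. In Ifit3, 2 separate copies begin 156 and 122 bases before it. A match describes the letters and is not evidence of a bound site.

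Antigen presentation split by class. Of 16 tested genes 9 fell and none rose (median -0.84). Those that fell serve class I: H2-K1 was at 916, 1418, 1218 and 1407 CPM at D0.5 and 387, 475 and 469 CPM at D3.5 (log2 fold change -1.48 ± 0.20 SE, adjusted p = 9.7e-05), and Tap1, the peptide pump, was at 62.3, 147, 131 and 126 CPM at D0.5 and 37.9, 43.3 and 46.1 CPM at D3.5 (log2 fold change -1.45 ± 0.28 SE, adjusted p = 0.0015). Reads of H2 class I genes may be shared among near-identical relatives. The class II genes H2-Ab1 and Cd74, which mark dendritic cells, macrophages and B cells, were at 122, 104, 222 and 180.1 CPM at D0.5 and 120.3, 188 and 207 CPM at D3.5 and at 373, 381, 617 and 522 CPM at D0.5 and 389, 579 and 669 CPM at D3.5, with overlapping groups and no call.

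Progesterone-responsive genes were higher. Of 21 tested, 13 rose and 2 fell, with a median of 1.01. The genes that fell were Ltf, which progesterone is known to suppress, and Dpep1, a membrane dipeptidase (-3.14 ± 0.17). Hsd11b2, which inactivates glucocorticoid, was at 26.6, 19.4, 27.1 and 23.1 CPM at D0.5 and 348, 376 and 381 CPM at D3.5. The D3.5 libraries were even and far above (log2 fold change 3.93 ± 0.20 SE, adjusted p = 4.4e-08). Areg, amphiregulin, a progesterone-induced ligand of the EGF receptor in the luminal epithelium, was at 0.237, 0.0654, 0.204 and 0 CPM at D0.5 and 10.4, 12.8 and 4.59 CPM at D3.5. It was all but silent at D0.5 (log2 fold change 5.91 ± 0.80 SE, adjusted p = 8.6e-05). Il13ra2, a decoy receptor for interleukin 13, was at 2.73, 0.916, 1.12 and 1.42 CPM at D0.5 and 20.4, 23.9 and 30.4 CPM at D3.5. Fst, follistatin, was at 6.26, 12, 3.42 and 7.35 CPM at D0.5 and 76.4, 97.1 and 50.9 CPM at D3.5. Both rose (adjusted p = 0.00019 and 7.4e-05). Calca, calcitonin, which rises in the receptive uterus, was at 1.44, 0.392, 0.153 and 1.01 CPM at D0.5 and 5.53, 18.2 and 3.03 CPM at D3.5, with mouse 14 the highest (log2 fold change 3.47 ± 0.63 SE, adjusted p = 0.00084). Acod1, also known to respond to progesterone, was at 25.4, 30.3, 55.4 and 35.6 CPM at D0.5 and 19.2, 32 and 40.8 CPM at D3.5 and Errfi1 at 173, 160.0, 131 and 171 CPM at D0.5 and 148, 219 and 167 CPM at D3.5, neither called.

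The Hedgehog pathway rose from ligand to target. Of 15 tested genes 10 rose and none fell, with a median of 0.995. The ligand Ihh was at 4.61, 0.981, 0.307 and 0 CPM at D0.5 and 37.9, 52.1 and 49.3 CPM at D3.5. Mouse 1 had the highest D0.5 value, still below the lowest at D3.5 (log2 fold change 4.77 ± 0.83 SE, adjusted p = 0.0006). Shh and Dhh, the other ligands, were at 0.71, 0.719, 0.153 and 0.771 CPM at D0.5 and 0.322, 0.212 and 0.102 CPM at D3.5 and at 1.76, 3.4, 2.2 and 2.31 CPM at D0.5 and 4.82, 4.37 and 5.68 CPM at D3.5, neither called. The receptor Ptch1, which Hedgehog signalling itself induces, was at 49.99, 65.9, 44.6 and 73.3 CPM at D0.5 and 255, 246 and 235 CPM at D3.5. It was higher in all 3 D3.5 libraries (log2 fold change 2.07 ± 0.17 SE, adjusted p = 1.2e-06). Gli1, the transcription factor used as the pathway's readout, was at 22.5, 11.5, 8.84 and 11.6 CPM at D0.5 and 248, 189.8 and 214 CPM at D3.5 (log2 fold change 3.98 ± 0.33 SE, adjusted p = 1.6e-06). Hhip, which binds and dampens Hedgehog ligands, was at 0.129, 0, 0.409 and 0.0593 CPM at D0.5 and 26.4, 31.1 and 12 CPM at D3.5 and changed most of the list (log2 fold change 7.18 ± 0.65 SE, adjusted p = 3.5e-06). Gli3 rose by 1.21 ± 0.14 and Gli2 was at 54.8, 44.1, 51.7 and 51.5 CPM at D0.5 and 57.5, 49.3 and 50.3 CPM at D3.5 without a call. Nr2f2, COUP-TFII, the stromal mediator of the signal, was at 160.1, 144, 144 and 192 CPM at D0.5 and 331, 319 and 306 CPM at D3.5 (log2 fold change 1.00 ± 0.17 SE, adjusted p = 0.00058). The GLI motif GACCACCCA was found on neither strand of the 11 promoters of this list that the table held, and in 0.244% of all promoters.

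**Figure D3:**
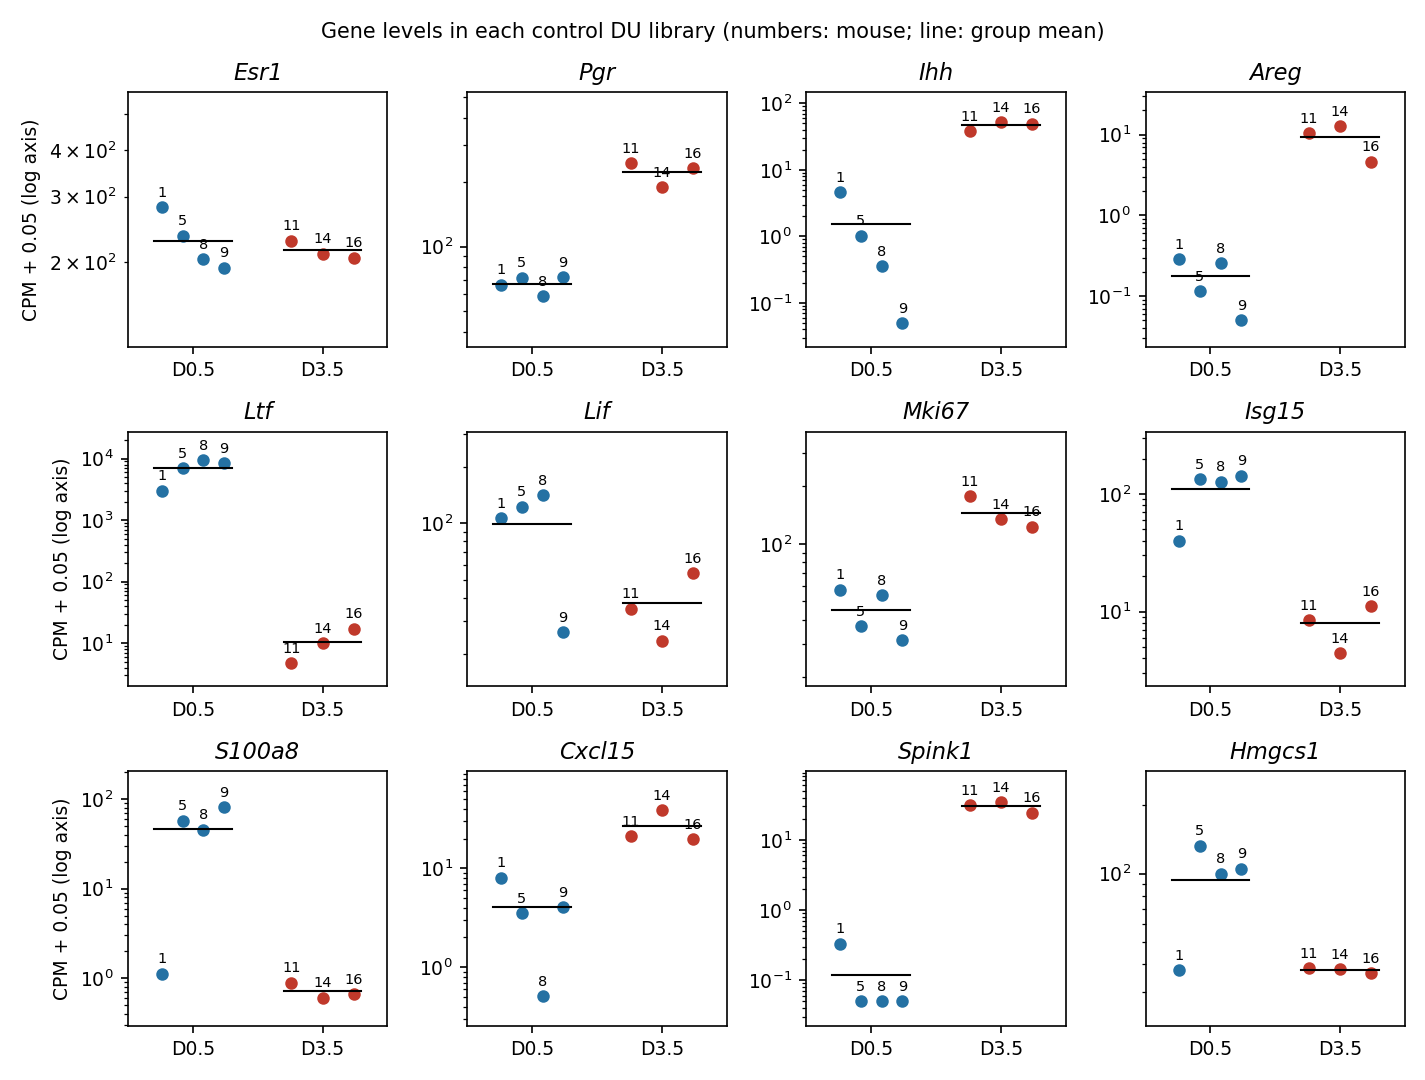
CPM (log axis, 0.05 added) of 12 genes in each control digested uterus library, by day, with mouse numbers and the group mean as a line. Esr1 overlaps between days, Pgr, Ihh, Areg, Mki67, Cxcl15 and Spink1 are higher in each of the 3 D3.5 libraries, and S100a8 and Hmgcs1 of mouse 1 lie far below those of mice 5, 8 and 9.

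The plot of single genes by library shows how far the pattern holds in each mouse. Lif, the cytokine needed for implantation, was at 106, 122, 141 and 26 CPM at D0.5 and 34.9, 23.5 and 53.9 CPM at D3.5, with mouse 9 low at D0.5 and an adjusted p of 0.058. Of 15 genes of the LIF, gp130 and STAT3 route 6 fell and 3 rose (median -0.46), and 3 fell without mouse 16. Il6ra, the receptor chain for interleukin 6, was at 86.8, 112, 69.7 and 97.7 CPM at D0.5 and 31.8, 31.4 and 34.3 CPM at D3.5 and Lifr, the LIF receptor, at 88.3, 87.9, 50.5 and 63.5 CPM at D0.5 and 47.9, 33.8 and 39 CPM at D3.5. Il6st, the gp130 chain both share, was at 719.7, 625, 756 and 801 CPM at D0.5 and 1069, 1107 and 1082 CPM at D3.5. Il6ra and Lifr fell (adjusted p = 8e-06 and 0.021) and Il6st rose (adjusted p = 0.0056). Il11ra1, the receptor chain for interleukin 11, also rose, with overlapping groups (log2 fold change 0.71 ± 0.18 SE, adjusted p = 0.0086).

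Ligands and receptors of the EGF family mostly fell: 8 of 13 tested fell and 1, Areg, rose, with a median of -1.32. Nrg1, neuregulin, was at 24.6, 15.9, 14.6 and 21.1 CPM at D0.5 and 1.67, 1.06 and 1.5 CPM at D3.5. Hbegf, the ligand known for its role at attachment, was at 37.4, 26.8, 40.7 and 12.8 CPM at D0.5 and 3.86, 3.69 and 4.2 CPM at D3.5. Neither D3.5 group reached the D0.5 values (-3.76 ± 0.36 and -2.91 ± 0.37). Erbb3, a neuregulin receptor, was at 96.6, 197, 120.5 and 148 CPM at D0.5 and 23.5, 31.4 and 28.4 CPM at D3.5 (log2 fold change -2.34 ± 0.24 SE, adjusted p = 1e-05), and Lrig1, which damps the receptors, fell (log2 fold change -2.12 ± 0.28). Egfr itself was at 163, 107, 116 and 109 CPM at D0.5 and 138, 136 and 118 CPM at D3.5 with overlap.

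In the IGF axis 3 of 13 rose and 5 fell (median -0.06). Beside Igf1, Igf2 was at 5.32, 4.12, 5.57 and 6.46 CPM at D0.5 and 19, 14.5 and 12.6 CPM at D3.5 and the binding protein gene Igfbp4 at 262, 458, 439.9 and 585 CPM at D0.5 and 791, 956 and 875 CPM at D3.5. Both rose (1.51 ± 0.20 and 1.00 ± 0.20). The receptor Igf1r was at 239.7, 242, 211 and 177 CPM at D0.5 and 126, 128 and 120.2 CPM at D3.5 and fell (log2 fold change -0.80 ± 0.15 SE, adjusted p = 0.001), as did Stc2, an inhibitor of the protease that frees IGF from its binding proteins (-2.75 ± 0.30). The ligands Igf1 and Igf2 thus rose while the receptor fell.

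BMP and activin genes were divided: 6 of 20 rose and 4 fell (median 0.07, of a sign that changes with the processing). Among all tested genes 15.9% were called higher and 18.5% lower. Inhbb, an activin subunit, was at 154, 222, 279 and 264 CPM at D0.5 and 16.1, 13.8 and 18.9 CPM at D3.5 (log2 fold change -3.82 ± 0.30 SE, adjusted p = 8.4e-07), and Inhba, the other subunit, fell (log2 fold change -2.47 ± 0.23). Their binding antagonist Fst rose as given above, and Nog, the BMP antagonist, was at 2.47, 2.16, 1.99 and 1.36 CPM at D0.5 and 7.72, 9.16 and 9.27 CPM at D3.5 (log2 fold change 2.11 ± 0.33 SE, adjusted p = 0.00026). Id2 and Id3, which BMP signals induce, were at 39.5, 37.8, 35.1 and 47.2 CPM at D0.5 and 85, 121 and 96.3 CPM at D3.5 and at 16.3, 15.2, 22.3 and 11.4 CPM at D0.5 and 62.8, 67.2 and 72 CPM at D3.5, and both were above all D0.5 libraries (1.34 ± 0.19 and 2.04 ± 0.21). Bmp2 was at 10.6, 4.12, 10.2 and 6.23 CPM at D0.5 and 7.14, 9.21 and 7.11 CPM at D3.5 without a call.

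In the Wnt pathway 7 of 25 rose and 7 fell (median 0.15). Among the ligands, Wnt7b was at 72.7, 59.8, 77.3 and 47.1 CPM at D0.5 and 0.9, 1.49 and 2.09 CPM at D3.5 (log2 fold change -5.36 ± 0.39 SE, adjusted p = 6e-07), and Wnt4, also made by stroma, was at 33.2, 60.0, 102 and 70.4 CPM at D0.5 and 10.6, 7.21 and 9.48 CPM at D3.5 (log2 fold change -2.87 ± 0.32 SE, adjusted p = 1.9e-05). Wnt7a was at 10.4, 16.9, 36.2 and 13.1 CPM at D0.5 and 4.7, 8.32 and 12.2 CPM at D3.5, and it was called lower although the groups overlapped (adjusted p = 0.047). Lef1, a transcription factor at the end of the pathway, was at 8.13, 4.64, 4.7 and 4.45 CPM at D0.5 and 36.1, 29.7 and 32 CPM at D3.5 (log2 fold change 2.55 ± 0.21 SE, adjusted p = 1.8e-06), with mouse 1 the highest of the D0.5 group. Sfrp1, a secreted Wnt inhibitor, rose by 1.06 ± 0.23. Axin2, the usual readout of the pathway, was at 56.2, 56.2, 48.6 and 67.7 CPM at D0.5 and 57.8, 51.9 and 48 CPM at D3.5 without a call. In the Notch pathway 4 of 15 rose and 4 fell, beside 15.9% and 18.5% of all tested genes. Heyl and Notch3, both known from vessel walls, rose (1.81 ± 0.17 and 0.92 ± 0.14), and Hey1, a target gene, fell (-2.44 ± 0.39). Without mouse 11 or 14, 2 Notch genes fell in place of 4. Of 14 FGF genes 2 rose and 1 fell, that being Dusp6, a phosphatase induced by the pathway (-1.88 ± 0.24). Of the genes that rose, Fgfr4 had 27 counts at D0.5 and 83 at D3.5, and it lost its call without mouse 5, 8, 9, 11, 14 or 16, so that 1 FGF gene rose without mouse 5, 11, 14 or 16. Without mouse 1 or 5, 2 fell.

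Genes of cell division rose together. Of 20 tested DNA replication genes 17 rose and none fell (median 1.03), and of 20 mitosis genes 18 rose and none fell (median 1.66). In all 40 the 3 D3.5 libraries lay above the 4 D0.5 libraries. Mki67, the antigen Ki-67 of cycling cells, was at 57.5, 36.9, 53.9 and 31.3 CPM at D0.5 and 178, 135 and 123 CPM at D3.5 (log2 fold change 1.69 ± 0.44 SE, adjusted p = 0.0087). Top2a, which untangles DNA, was at 35, 24.6, 38.4 and 21.1 CPM at D0.5 and 137, 139.9 and 125 CPM at D3.5 (log2 fold change 2.17 ± 0.44 SE, adjusted p = 0.002). Ccna2, cyclin A, was at 11, 7.13, 12.9 and 8.36 CPM at D0.5 and 44.5, 36.4 and 35.9 CPM at D3.5 (log2 fold change 1.97 ± 0.43 SE, adjusted p = 0.0031). Among replication genes, Pole, a DNA polymerase, was at 6.5, 4.71, 5.01 and 3.8 CPM at D0.5 and 21.3, 20.1 and 17.1 CPM at D3.5 and Mcm5 of the helicase at 10.5, 13.6, 15.6 and 14.5 CPM at D0.5 and 38.7, 37.2 and 41.3 CPM at D3.5. Both were clear of the D0.5 group (1.95 ± 0.32 and 1.53 ± 0.28). The members that missed the threshold were Gins1, Gins2 and Cdc6 of replication and Bub1b and Ube2c of mitosis. Leaving out single libraries kept 14 to 17 replication genes and 12 to 16 mitosis genes called.

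Promoters of these lists were searched for 3 motifs on both strands. The CCAAT box (CCAAT) was in 14 of 16 mitosis promoters (87.5%), 10 of 15 replication promoters (66.7%) and 37.9% of all promoters. The letters TTTGAA, the core of the cell cycle homology region, were in 11 of 16 mitosis promoters (68.8%), 1 of 15 replication promoters (6.67%) and 18.1% of all. The E2F motif TTTCCCGC was in 4 of 15 replication promoters (26.7%), in none of the 16 mitosis promoters and in 1.11% of all. The 250 bases before the start sites of Ccnb2 (chr9:70421555-70421804, minus strand), cyclin B2, and Cdk1 (chr10:69352913-69353162, minus strand), its kinase, are printed because they show the spacing of these letters in genes that rose. Capitals mark CCAAT, or ATTGG where it lies on the other strand, and TTTGAA.
Ccnb2: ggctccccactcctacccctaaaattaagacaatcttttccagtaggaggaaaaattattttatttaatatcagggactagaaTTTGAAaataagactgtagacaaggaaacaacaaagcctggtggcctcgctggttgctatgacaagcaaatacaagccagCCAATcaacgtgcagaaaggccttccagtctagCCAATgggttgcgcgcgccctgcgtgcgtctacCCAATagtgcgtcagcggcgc
Cdk1: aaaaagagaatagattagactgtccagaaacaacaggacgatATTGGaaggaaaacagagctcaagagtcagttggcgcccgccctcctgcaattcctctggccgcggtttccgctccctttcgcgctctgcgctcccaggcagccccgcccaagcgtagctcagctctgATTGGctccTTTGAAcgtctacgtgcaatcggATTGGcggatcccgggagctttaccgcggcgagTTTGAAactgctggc
Ccnb2 holds CCAAT at 87, 54 and 21 bases before the start, and Cdk1 holds it at 208, 80 and 48 bases before the start. A second TTTGAA of Ccnb2 begins 4 bases after the start site and lies outside the stretch printed. Ccnb2 was at 5.42, 3.66, 6.74 and 3.62 CPM at D0.5 and 16.3, 16.5 and 14.8 CPM at D3.5 (log2 fold change 1.69 ± 0.46 SE, adjusted p = 0.012), and Cdk1 was at 6.13, 6.34, 9.04 and 5.75 CPM at D0.5 and 18.1, 16.1 and 20.3 CPM at D3.5 (log2 fold change 1.42 ± 0.46 SE, adjusted p = 0.028).

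Regulators of the cycle moved in both directions. Of 13 cyclins and inhibitors 4 rose and 5 fell. The inhibitor Cdkn1a, p21, was at 34.3, 69.1, 74.3 and 60.6 CPM at D0.5 and 13.1, 16.4 and 16 CPM at D3.5 (log2 fold change -1.97 ± 0.31 SE, adjusted p = 0.00026), and Cdkn1b, p27, was at 199, 162, 160.5 and 178 CPM at D0.5 and 105, 107.9 and 94.9 CPM at D3.5 (log2 fold change -0.77 ± 0.14 SE, adjusted p = 0.0008). Both were lower in all 3 D3.5 libraries than in any D0.5 library. Cdkn1c, p57, was at 28.2, 15.8, 22.3 and 29.8 CPM at D0.5 and 39.4, 57.5 and 62.8 CPM at D3.5 and rose (log2 fold change 1.15 ± 0.25 SE, adjusted p = 0.0028). Ccnd2, cyclin D2, was at 39.5, 69.5, 52.3 and 66.8 CPM at D0.5 and 116, 104 and 88.7 CPM at D3.5 (0.86 ± 0.24), while Ccnd1 and Ccnd3 were at 44.5, 85.2, 92.8 and 132 CPM at D0.5 and 117, 112 and 126 CPM at D3.5 and at 63.2, 89.9, 103 and 110.1 CPM at D0.5 and 90.2, 97.4 and 98.8 CPM at D3.5, with overlap. Myc, a driver of growth, was at 38.5, 39.4, 41.4 and 28.5 CPM at D0.5 and 126, 111 and 132 CPM at D3.5 and rose (log2 fold change 1.73 ± 0.21 SE, adjusted p = 3.6e-05).

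Other early response genes did not follow Myc. Of 24 immediate early and stress genes 11 fell and 1, Myc, rose (median -0.86). Ier3, a stress-induced survival gene, was at 377, 359.6, 441 and 143 CPM at D0.5 and 29.5, 27.5 and 39.1 CPM at D3.5 (log2 fold change -3.36 ± 0.40 SE, adjusted p = 3.3e-05). Btg2, which restrains the cell cycle, was at 265, 284, 259 and 196 CPM at D0.5 and 111, 80.1 and 75.1 CPM at D3.5 (log2 fold change -1.50 ± 0.18 SE, adjusted p = 3.6e-05). Fos was at 285, 178, 149 and 72 CPM at D0.5 and 187, 19.6 and 21.3 CPM at D3.5, with mouse 11 far above the other D3.5 mice and inside the D0.5 range. Fosb was at 35.1, 17.9, 6.9 and 2.73 CPM at D0.5 and 55.7, 3.18 and 2.4 CPM at D3.5 and Egr1 at 182, 106, 147 and 70.5 CPM at D0.5 and 209.8, 71.1 and 76.7 CPM at D3.5, and in both mouse 11 lay above every D0.5 library while mice 14 and 16 were low. The adjusted p was 0.31 for Fos, 0.83 for Fosb and 0.9 for Egr1.

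**Figure D4:**
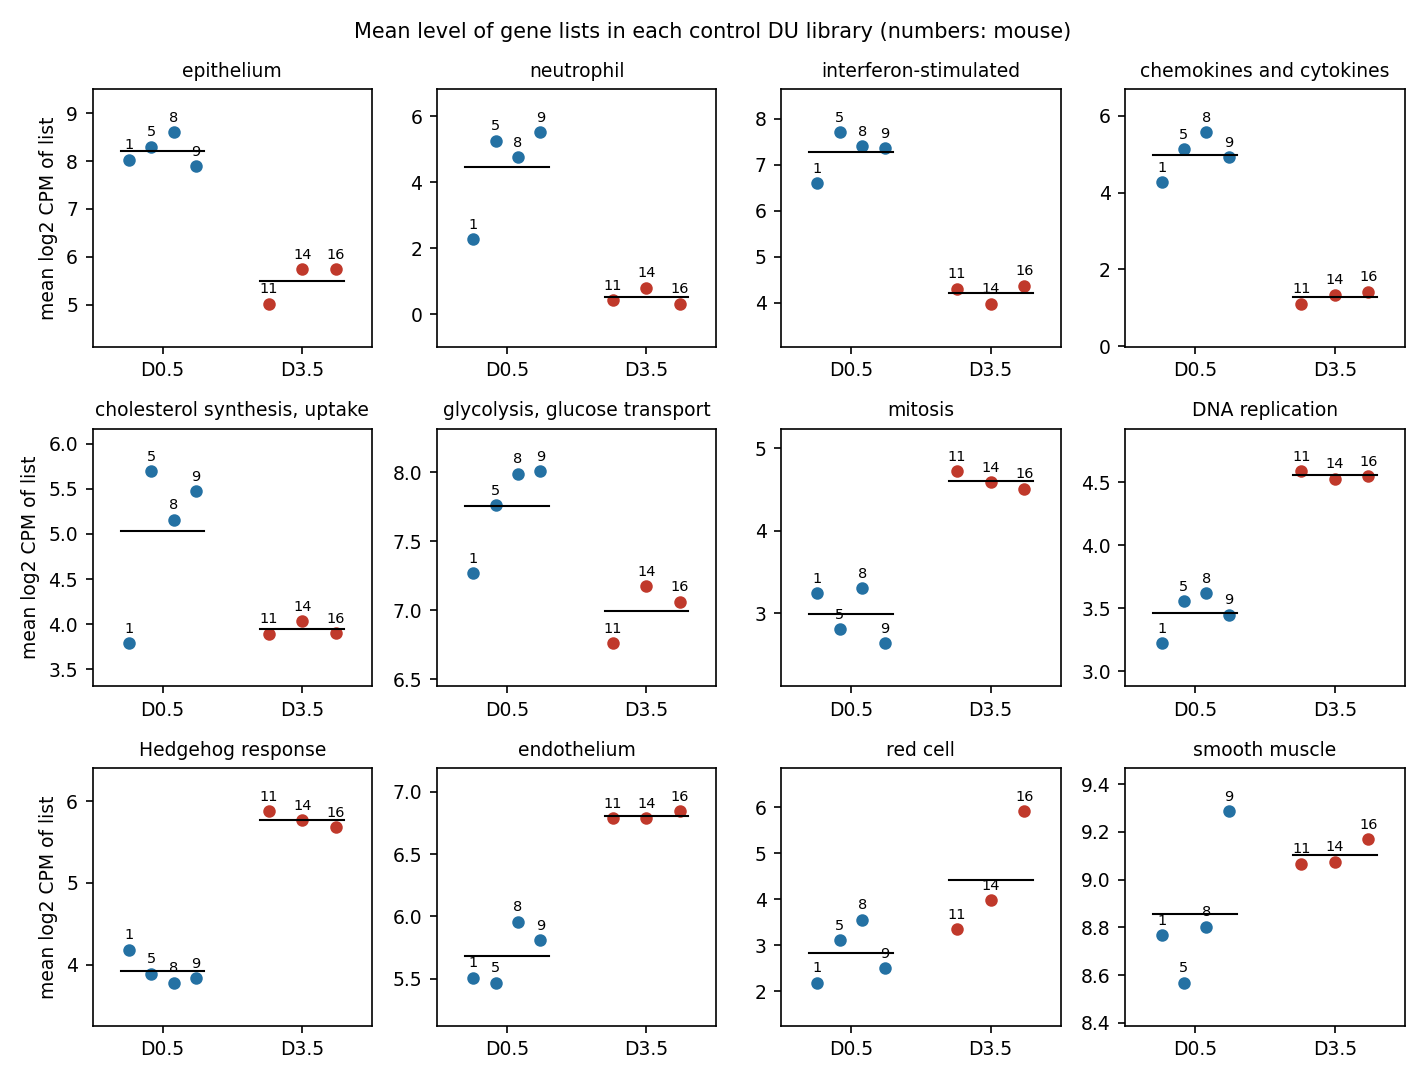
Mean log2 CPM of 12 gene lists in each control digested uterus library by day, with mouse numbers and group means as lines. Mouse 1 lies among the D3.5 libraries in the cholesterol list and between the days in the neutrophil list, mouse 16 is the highest of all in the red cell list, and the mitosis, DNA replication, Hedgehog and endothelial lists are higher in each D3.5 library.

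Stromal markers moved in both directions, as did all tested genes (15.9% higher and 18.5% lower). Of 11 stromal fibroblast markers 2 rose and 3 fell (median 0.30), and the list summed to 5182 to 6258 CPM at D0.5 and 5315 to 5448 CPM at D3.5. Pdgfra, which marks these cells, was at 503, 454, 522 and 419 CPM at D0.5 and 539, 627 and 520.5 CPM at D3.5 with overlap. Hoxa11 and Hand2, transcription factors of uterine stroma, were at 52.1, 69.5, 70.5 and 106 CPM at D0.5 and 259, 314 and 317 CPM at D3.5 and at 35.7, 44.5, 40.9 and 63.9 CPM at D0.5 and 94.7, 96.1 and 107 CPM at D3.5, and both rose (2.00 ± 0.21 and 1.10 ± 0.17). Dcn, decorin, was at 2347, 2148, 2461 and 2804 CPM at D0.5 and 1258, 1330.0 and 1236 CPM at D3.5 and fell (log2 fold change -0.94 ± 0.15 SE, adjusted p = 0.00028). Of 18 receptivity transcription factors 7 rose and 5 fell (median 0.54), and 3 fell without mouse 9, 11 or 16. Hoxa10, needed for the stromal response to progesterone, was at 97.4, 103, 105 and 149.9 CPM at D0.5 and 296, 322 and 326 CPM at D3.5, with mouse 9 the highest at D0.5 (log2 fold change 1.47 ± 0.15 SE, adjusted p = 8.2e-06). Klf5, an epithelial factor, was at 164, 143, 128 and 77.3 CPM at D0.5 and 16.7, 23.3 and 24.2 CPM at D3.5 (log2 fold change -2.58 ± 0.25 SE, adjusted p = 6.7e-06). Cebpb, an oestrogen-induced factor, was at 154, 186, 243 and 199 CPM at D0.5 and 44.9, 37 and 47.3 CPM at D3.5 (log2 fold change -2.18 ± 0.20 SE, adjusted p = 4e-06). Among 13 decidual genes, 4 rose and 5 fell, and Prl8a2 and Prl3c1, products of the decidua itself, had too few counts to be tested.

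Of 19 collagen and crosslinking genes 9 rose and 1 fell (median 0.61). Col14a1 was at 59.3, 69.9, 87.3 and 64.7 CPM at D0.5 and 343, 301 and 342 CPM at D3.5 and Col15a1 at 324, 303, 417 and 302 CPM at D0.5 and 1251, 1288 and 1193 CPM at D3.5. Each D3.5 mouse was far above (2.22 ± 0.16 and 1.89 ± 0.22). Col1a1, the main fibrillar chain, was at 2830.0, 3841, 4249 and 3524 CPM at D0.5 and 8419, 6185 and 7009.6 CPM at D3.5 (log2 fold change 1.00 ± 0.23 SE, adjusted p = 0.0049). The gene that fell was Lox, which crosslinks collagen, at 333, 721, 583 and 846 CPM at D0.5 and 99.8, 106 and 121 CPM at D3.5 (log2 fold change -2.51 ± 0.28 SE, adjusted p = 1.8e-05). Of 18 hyaluronan and proteoglycan genes 6 rose and 1, Dcn, fell (median 0.52). Has2, the main hyaluronan synthase, was at 4, 1.77, 1.64 and 1.01 CPM at D0.5 and 26.8, 28.7 and 25.7 CPM at D3.5 (log2 fold change 3.62 ± 0.36 SE, adjusted p = 7.1e-06). Fmod, fibromodulin, rose by 2.00 ± 0.30. Of 18 metalloproteinases and their inhibitors 8 fell and 5 rose (median -0.49), with 2 rising without mouse 5 and 3 without mouse 8, 9, 11, 14 or 16. Mmp7, matrilysin of epithelium, was at 68.2, 134, 91.4 and 118 CPM at D0.5 and 0, 0.0849 and 0.331 CPM at D3.5 (log2 fold change -9.08 ± 0.81 SE, adjusted p = 2.9e-06), and Mmp11, of stroma, was at 335, 259, 421 and 191 CPM at D0.5 and 22.4, 28.8 and 22.6 CPM at D3.5 (log2 fold change -3.62 ± 0.39 SE, adjusted p = 1.4e-05). Mmp2 and Timp3, which are stromal as well, rose by 0.49 ± 0.17 and 0.43 ± 0.14.

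Vessel genes rose. Of 11 endothelial markers 10 rose and none fell, with a median of 1.27, and the list summed to 582 to 820 CPM at D0.5 and 1473 to 1584 CPM at D3.5. Cdh5, the cadherin of endothelium, was at 87.8, 99.8, 133 and 134 CPM at D0.5 and 301, 301 and 299 CPM at D3.5, with even D3.5 libraries (log2 fold change 1.40 ± 0.14 SE, adjusted p = 8.7e-06). Emcn, a marker of veins and capillaries, was at 19.9, 22.7, 25.1 and 26.6 CPM at D0.5 and 61.7, 51.6 and 58.3 CPM at D3.5 (log2 fold change 1.28 ± 0.14 SE, adjusted p = 1.2e-05). Of 6 pericyte markers 3 rose, among them Rgs5 at 251, 250.2, 265 and 273 CPM at D0.5 and 670.1, 634 and 577 CPM at D3.5 (log2 fold change 1.27 ± 0.12 SE, adjusted p = 4.5e-06). Among 21 genes of vessel growth 6 rose and 3 fell (median -0.22). The receptors Kdr and Aplnr rose (1.07 ± 0.15 and 1.78 ± 0.21). Of the ligands, Angpt1, which acts on the endothelial receptor TIE2, rose (1.51 ± 0.20), and Vegfa and Adm fell (-0.91 ± 0.27 and -2.21 ± 0.32). Vegfa was at 139, 271, 191 and 178 CPM at D0.5 and 120.1, 87.2 and 103 CPM at D3.5, with all D3.5 mice below all D0.5 mice. Globin genes were called higher, 5 of 5 red cell genes with a median of 1.86, but in all 5 the groups overlapped. Hbb-bs was at 11.2, 24.3, 42 and 18.1 CPM at D0.5 and 31.5, 45.1 and 202 CPM at D3.5, with mouse 16 far above every other mouse. None of the 5 was called without mouse 16 or without mouse 9, 2 were called without mouse 1 or without mouse 5, and globin genes are near-identical copies.

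Of 11 smooth muscle markers 1 rose and 1 fell (median 0.33). Without mouse 9, 4 rose, and the gene that fell, Tagln, lost its call without mouse 8, 9, 11, 14 or 16, on TPM values, without the filter on low counts and with the 2 groups fitted alone. The list had sums of 8091 to 14900 CPM at D0.5 and 11310 to 12020 CPM at D3.5. Myh11, the smooth muscle myosin, was at 2512, 1714, 2602 and 3148 CPM at D0.5 and 3550.1, 3142 and 3212 CPM at D3.5 with overlap. Among 17 genes of contraction 5 rose and 3 fell. Oxtr, the oxytocin receptor, was at 45.5, 44.3, 78.1 and 63.7 CPM at D0.5 and 12.3, 12.1 and 12.1 CPM at D3.5, and the D3.5 values were even (log2 fold change -2.25 ± 0.28 SE, adjusted p = 3.9e-05). Gja1, connexin 43, which couples muscle cells, fell (log2 fold change -0.88 ± 0.15). Ptgs2, the inducible cyclooxygenase, was at 216, 361, 782 and 150.2 CPM at D0.5 and 1.29, 1.1 and 1.17 CPM at D3.5 (log2 fold change -8.32 ± 0.89 SE, adjusted p = 1.3e-05), while Ptgfr, the receptor of prostaglandin F, was at 7.47, 11.7, 10.5 and 14.1 CPM at D0.5 and 32.4, 29.8 and 25.7 CPM at D3.5 and rose (log2 fold change 1.43 ± 0.25 SE, adjusted p = 0.00063). Of 17 prostaglandin genes 4 rose and 4 fell (beside 15.9% and 18.5% of all tested genes), and 2 fell without mouse 11. Ptger4 and Ptger3, receptors of prostaglandin E, rose (0.90 ± 0.14 and 1.18 ± 0.34), and Ptgs1, the constitutive cyclooxygenase, was at 31.3, 21.6, 17.2 and 25.1 CPM at D0.5 and 28.4, 29.1 and 34.2 CPM at D3.5 without a call.

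Cholesterol genes were lower, and mouse 1 stood near the D3.5 libraries. Of 20 synthesis and uptake genes 14 fell and none rose (median -1.46). Mvd, of the mevalonate route, was at 25.1, 69, 52.3 and 55.4 CPM at D0.5 and 5.6, 7.98 and 6.22 CPM at D3.5 (log2 fold change -2.93 ± 0.33 SE, adjusted p = 2e-05). Hmgcs1, an earlier step, was at 37.4, 133, 99.6 and 105 CPM at D0.5 and 38.2, 37.8 and 36.4 CPM at D3.5. Mouse 1 lay within the D3.5 range and the other 3 D0.5 mice well above it (log2 fold change -1.32 ± 0.35 SE, adjusted p = 0.0098). Without mouse 1, 15 fell (median -1.53), and without mouse 11, 9 fell. Glucose use showed the same direction: 11 of 16 fell and 1 rose (median -0.98). Hk2, the inducible hexokinase, was at 229, 244, 274 and 146 CPM at D0.5 and 27.3, 44.4 and 29.6 CPM at D3.5 (log2 fold change -2.73 ± 0.29 SE, adjusted p = 1.3e-05), and Slc2a1, the common glucose transporter, was at 59.8, 130.5, 147 and 115 CPM at D0.5 and 16.9, 25.5 and 22 CPM at D3.5 (log2 fold change -2.39 ± 0.36 SE, adjusted p = 0.00019). The gene that rose was Slc2a3, a high-affinity glucose transporter, at 36.1, 19.6, 30.2 and 29.1 CPM at D0.5 and 203, 373 and 277 CPM at D3.5 (log2 fold change 3.30 ± 0.24 SE, adjusted p = 6e-07). Gapdh, often used as a reference gene, was at 682, 1134, 1296 and 1612 CPM at D0.5 and 459, 629 and 626 CPM at D3.5 and fell (log2 fold change -1.05 ± 0.27 SE, adjusted p = 0.0084). Of the 13 mitochondrially encoded genes of the respiratory chain edgeR called 0, with 0 at an unadjusted p below 0.05 (median 0.04), DESeq2 called 0, and limma voom and limma on TPM called 1 each.

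Of 12 polyamine and histamine genes 3 rose and 3 fell, beside 15.9% higher and 18.5% lower of all tested genes. Arg1, arginase, was at 159, 443, 418 and 255 CPM at D0.5 and 0.707, 0.509 and 0.815 CPM at D3.5 (log2 fold change -8.84 ± 0.61 SE, adjusted p = 3.7e-07), and Sat1, which breaks down polyamines, was at 352, 361, 303 and 286 CPM at D0.5 and 40.1, 41.6 and 53.2 CPM at D3.5 (log2 fold change -2.85 ± 0.16 SE, adjusted p = 6.9e-08). Srm, spermidine synthase, was at 15.3, 24.5, 22.9 and 28.9 CPM at D0.5 and 66.4, 67.1 and 83.7 CPM at D3.5 and rose (log2 fold change 1.67 ± 0.27 SE, adjusted p = 0.0004). Hdc, which makes histamine, was at 33.8, 107.8, 93.7 and 117 CPM at D0.5 and 127, 222 and 273 CPM at D3.5, with mouse 1 the lowest (log2 fold change 1.24 ± 0.38 SE, adjusted p = 0.022). In local steroid metabolism 5 of 10 fell and 1, Hsd11b2, rose, with 2 or 3 falling without mouse 1, 9, 11, 14 or 16. Hsd17b2, which inactivates oestradiol, was at 20.3, 26.4, 22 and 20.1 CPM at D0.5 and 0 in each of the 3 libraries at D3.5. By the floor of 3 counts it was at least 580.2-fold lower. Of 17 retinoid genes 5 fell and 3 rose, and 3 fell without mouse 11, 14 or 16. Stra6, the receptor for the retinol carrier, was at 3.18, 8.18, 19.7 and 19 CPM at D0.5 and 80.5, 105 and 70.1 CPM at D3.5 and rose (log2 fold change 2.79 ± 0.46 SE, adjusted p = 0.00043). Rbp4, the carrier itself, was at 3.94, 20.7, 18.7 and 27.7 CPM at D0.5 and 2.83, 2.55 and 2.85 CPM at D3.5 and fell (log2 fold change -2.68 ± 0.55 SE, adjusted p = 0.002). Of 18 chaperones and genes of the unfolded protein response 4 fell (median -0.30). Xbp1, their transcription factor, was at 711, 384, 334 and 353 CPM at D0.5 and 214, 259 and 274 CPM at D3.5, with mouse 1 far above the rest (log2 fold change -0.84 ± 0.24 SE, adjusted p = 0.015). None of the 18 was called on TPM values, and 2 were without mouse 11.

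The day change in digested uterus was set against that of undigested uterus from the same control groups. edgeR called 0 of 16782 genes for the difference between the 2 day changes (0%), and 88 had an unadjusted p below 0.05. With a term for each of the 7 control mice that gave both tissues, a block, 0 of 16141 passed and 274 had an unadjusted p below 0.05. Both counts lie below the share of 0.05 that chance alone gives, so these tests were stricter than their threshold. The fit without the block also treated libraries of the same mouse as independent. For these reasons 0 calls do not measure how alike the tissues are. A p that misses the threshold does not show that the tissues act alike. For the median gene the SE of the difference was 0.37 on the log2 scale, and 0.25 with the block. Undigested uterus by itself had 5549 called genes (34.2%). List medians lay side by side: -2.99 in DU and -3.10 in U for the interferon genes, 1.66 and 1.43 for mitosis, and 1.27 and 1.12 for endothelium. The fit also held the knockout libraries of both tissues, which entered only the estimate of spread.

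Many genes changed by a different amount in scraped luminal epithelium. The test of the difference called 3100 of 16780 genes (18.5%), 1587 with the higher log2 change in DU (9.46%) and 1513 with the lower (9.02%), and 2558 of 16054 (15.9%) with the mouse as a block, 1156 higher (7.2%) and 1402 lower (8.73%). In LE alone 6861 genes were called (44%). Counts of list members that differ are from the fit without the block. Mitosis genes had a median of 1.66 in DU and -0.85 in LE, where 1 of 20, Top2a, rose, and 1 of the 20 differences passed the test. That gene was Ccnb2, with a change of 1.69 in DU and -1.80 in LE (difference 3.58, adjusted p = 0.048), and its difference with the mouse block was 1.56 (adjusted p = 0.16). Cholesterol genes fell in both, -1.46 in DU and -2.83 in LE, and 9 of 20 differences passed. Respiratory chain genes had medians of 0.04 in DU and 1.13 in LE, where 10 of 13 rose, and 1 difference passed. Epithelial markers fell by a median of -2.61 in DU and -1.22 in LE, and 10 of 15 differences passed, all with the lower log2 change in DU. Macrophage markers had medians of -0.59 in DU and 1.41 in LE, and 4 of 11 differences had the lower log2 change in DU and 1 the higher. Other non-epithelial markers changed in LE too, with medians of 1.85 for endothelium, 1.21 for stromal fibroblast and 1.78 for lymphocytes and natural killer cells. Smooth muscle had 0.32 and neutrophils -2.98. The share of such cells in scraped LE on each day was not tested, and it may enter every difference between DU and LE.

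By rule, 5 genes at either end of this difference are named. Mme, neprilysin, a membrane peptidase, had mean levels of 114.5 ± 64.8 (SD, n = 4) and 556 ± 75.8 CPM (SD, n = 3) in DU and of 2.61 ± 3.48 (SD, n = 9) and 2795 ± 1348 CPM (SD, n = 4) in LE. It rose in both, much more in LE (difference -7.65 ± 1.06, adjusted p = 4e-06). Npl, which breaks down sialic acid, rose from 4.51 to 74.8 CPM in DU and from 0.303 to 825 CPM in LE (difference -7.35). Tm4sf4, 1110002E22Rik and Sptlc3 lay at the same end with differences of -7.39, -7.57 and -7.92. Cited1, Slc26a4, Tnip3, Gm3336 and Glrb lay at the other end. Each of these 5 had no counts in any of the 4 LE libraries at D3.5, so the fitted differences of 7.66 to 10.38 depend on the count that the model adds. Cited1, a cofactor of oestrogen signalling, had means of 10.6 and 0.504 CPM in DU and 34.8 and 0 CPM in LE. Glrb, a glycine receptor subunit, was at 13.2 and 11.3 CPM in DU and 7.23 and 0 CPM in LE.

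Fewer genes differed in their day change between control and knockout digested uterus. The genotype by day term called 304 of 16194 genes (1.88%), 151 with the higher log2 change in controls (0.932%) and 153 with the lower (0.945%), and 2546 had an unadjusted p below 0.05. DESeq2 called 903. Leaving out single libraries gave 105 to 563 calls, the fewest without control mouse 16 and the most without control mouse 1. In knockout DU alone 4889 genes were called (30.2%). Alpl, alkaline phosphatase, had means of 336 ± 136.9 (SD, n = 4) and 3.16 ± 0.395 CPM (SD, n = 3) in controls and of 2.11 ± 0.421 and 4.70 ± 0.943 CPM (SD, n = 3 each) in knockouts. It fell in controls and was low on both days in knockouts (difference -7.89 ± 0.48, adjusted p = 2.4e-06). Peg10, an imprinted gene derived from a retrotransposon, showed the same, at 1262 and 11.7 CPM in controls and 11.4 and 20.9 CPM in knockouts (difference -7.64). Ptprh, a receptor phosphatase, and Cyp21a1, a steroid hydroxylase, were likewise high at D0.5 in controls and low in the other 3 groups, with differences of -7.03 and -6.53, and Sprr2a2 followed with -6.87. At the other end, Serpina3n, an inhibitor of proteases in inflammation, was at 149 and 118 CPM in controls and 255 and 3.14 CPM in knockouts (difference 6.00). Wfdc3 rose in controls from 0.806 to 12.3 CPM and was at 0.737 and 0.0755 CPM in knockouts (difference 7.17). Mmp8, Sele and Hp completed this end with differences of 7.35, 5.53 and 5.38, and Mmp8 lost its call when several single libraries were left out (adjusted p = 0.12 without control mouse 16). Hp and Cyp21a1 lost theirs without control mouse 14 or 16, and Ptprh without control mouse 16.

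Gene lists are set side by side for the genotypes. Mitosis genes had a median of 1.66 in control DU and 0.33 in knockout DU, where edgeR called 0 of 20. It also called 0 of the 20 differences, with 6 at an unadjusted p below 0.05. Top2a changed by 2.17 in controls and 0.36 in knockouts (adjusted p of the difference = 0.19). Interferon genes had medians of -2.99 and -1.65, and 1 of 15 differences passed, that of Irf7. Oestrogen-responsive genes had medians of -4.41 and -2.79, with 6 of 23 differences passing, all with the lower log2 change in controls. Hedgehog genes had medians of 0.995 and 0.855, and 1 of 15 differences passed, that of Cdon, a co-receptor. Of the LIF, gp130 and STAT3 genes 5 of 15 differences passed, all with the higher log2 change in controls. They were Lif (3.94), Il6st (1.28), Stat3 (1.32), Socs3 (2.98) and Osmr (1.79). Such a difference is not a rise in controls, where Osmr fell (-1.59). Medians of that list were -0.457 in controls and -1.003 in knockouts. Calls on single genes of the lists were not refitted with libraries left out. Red cell genes had medians of 1.86 and -0.23, with 0 of 5 differences called and 4 at an unadjusted p below 0.05. The comparisons between DU of both genotypes share no mouse, and those between DU, U and LE of controls share their mice.

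**Figure D5:**
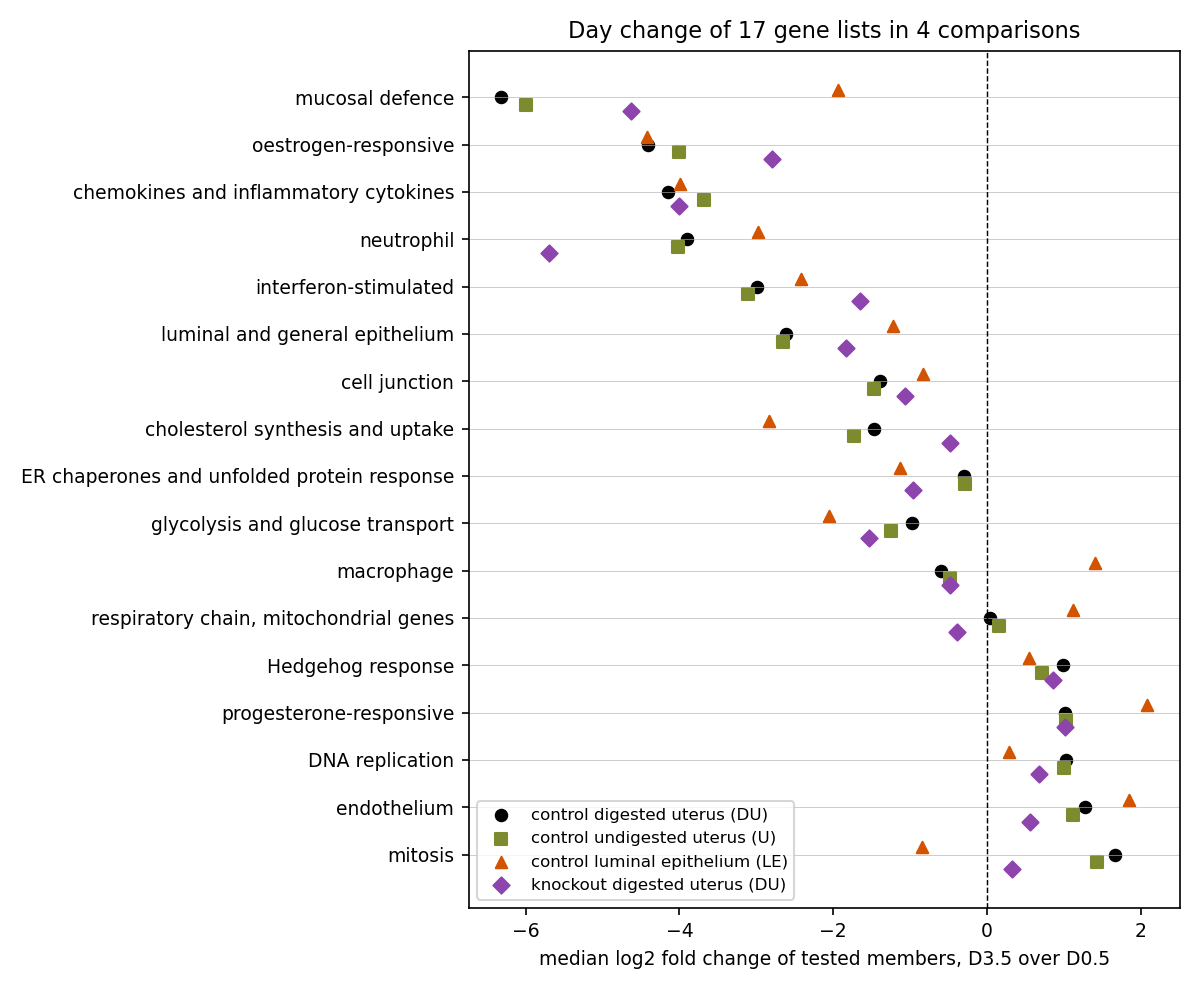
Median log2 fold change of D3.5 over D0.5 (x axis) of the tested members of 17 gene lists (y axis) in control digested uterus, control undigested uterus, control luminal epithelium and knockout digested uterus. Digested and undigested control uterus lie close together in every list shown, luminal epithelium lies at -0.85 for mitosis against 1.66 in digested uterus, and knockout digested uterus lies at 0.33.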

How the data were processed

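RNA from 59 mouse uterine samples was sequenced, and 7 control digested uterus libraries are reported here. The authors deposited estimated counts per gene and TPM made with kallisto 0.46.1 on GRCm39, per the submitters' processing notes, and no annotation is named in the sources used here. Estimated counts were rounded to whole numbers. Library totals of 14053800 to 46214396 limit the precision for low genes.

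Genes were filtered with edgeR 4.0.16 (filterByExpr, minimum count 10, minimum total 15) and scaled with TMM. The quasi-likelihood test was fitted to all 13 digested uterus libraries in their genotype and day groups, which share 1 estimate of spread, with Benjamini-Hochberg adjustment over all tested genes in R 4.3.3. Differences between day changes were tested as interaction terms over both tissues or both genotypes. Single-gene names follow a rule. It takes the 12 called genes at either end and the 5 called members of each list with the lowest adjusted p. It also takes 5 genes at either end of each difference. The 12 at either end had to average 10 CPM or more in the higher group, with libraries of D0.5 and D3.5 not overlapping. Predicted or clone names (Gm, Rik, LOC and the like) were left out of these 12. Other list members are named to complete a pathway or because they did not pass, and these were chosen after their values were seen. The gene groups and lists were chosen with earlier results of these data known. A fold against a group without counts uses a floor of 3 counts over the group, and intervals (95%, exact) and floors cover counting error only.

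Alternatives were DESeq2 1.42.0, limma 3.58.1 (voom with sample weights, and log2(TPM + 1) with a mean TPM of at least 1), median-of-ratios size factors, no filter, the 2 groups alone, and each library left out. Digested and undigested uterus come from the same 7 control mice, and their deviations from group means correlated with a median r of 0.601 (0.291 to 0.787, over 10705 genes); for luminal epithelium the median was 0.277 (-0.134 to 0.620). In data simulated for the day change over 15974 genes the test recovered 66% of 2-fold and 95% of 4-fold changes. For the genotype difference, over 15983 genes, it recovered 18% and 80%. Changes were given to 100 genes of each size, all with ample expected counts, so genes with few counts are not covered. Far more genes were called in the data than were changed in the simulation. Some genes that the rule for named genes selects are not reported here by name.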

Additional observations from a re-analysis of the deposited data

Results flagged for a closer look

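In the D0.5 group of 4 mice, 1 library lay far from the other 3 by Dixon's ratio of gap to range above its 95% critical value in 12 of 239 named genes, where chance gives about 11.9, since it marks about 1 in 20 groups. Mouse 1 was that library in 9 of the 12.

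Mouse 1 was the highest for Spink1 (ratio 1, 0.28 CPM against 0), Krt83 (0.842, 2.52 CPM against at most 0.562), Gata2 (0.856, 136.5 CPM against at most 113), Lef1 (0.931, 8.13 CPM against at most 4.70), Akr1c18 (0.912, 12.3 CPM against at most 1.78) and Xbp1 (0.867, 711 CPM against at most 384). It was the lowest for H2-D1 (0.893, 1005 CPM against at least 1496), Tapbp (0.842, 271 CPM against at least 523) and Pigr (0.859, 1519 CPM against at least 3148). Mouse 8 was the lowest for Fam83a (0.894) and the highest for Aldh1a3 (0.885, 20.5 CPM against at most 6.35). Mouse 9 was the highest for Hoxa10 (0.857). Of 56 gene lists 1 was marked, where chance gives about 2.8: the dendritic cell list (0.846), with a mean log2 CPM of 2.39 in mouse 1 against 2.60 to 2.63.

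The day change differed between digested uterus and luminal epithelium of controls, by edgeR's interaction test, for Glrb (10.38), Cited1 (8.48), Slc26a4 (8.38), Tnip3 (7.85) and Gm3336 (7.66) towards digested uterus, and for Npl (-7.35), Tm4sf4 (-7.39), 1110002E22Rik (-7.57), Mme (-7.65) and Sptlc3 (-7.92) towards luminal epithelium. It differed between control and knockout digested uterus for Mmp8 (7.35), Wfdc3 (7.17), Serpina3n (6.00), Sele (5.53) and Hp (5.38), and for Cyp21a1 (-6.53), Sprr2a2 (-6.87), Ptprh (-7.03), Peg10 (-7.64) and Alpl (-7.89). All values are differences of log2 fold changes. Tnip3 lost its call when mouse 1, 9, 11, 14 or 16 was left out, and Slc26a4 without mouse 14.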

How the results depend on the processing

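The count of called genes, 5573 in the reported test, was 5575 with median-of-ratios size factors, 5411 without the filter, 6118 with DESeq2, 6923 with limma voom, 5582 with limma on TPM and 5438 with the 2 groups alone. Leaving out single libraries gave 4275 to 5772 genes. Of 235 called genes named by the rule, 211 kept direction and call in each alternative, 24 lost the call in some, and 0 reversed. The difference between control and knockout digested uterus rests more on the tool and the library. DESeq2 called 903 genes, 434 with the higher and 469 with the lower log2 change in controls. Leaving out single libraries gave 105 to 563 (49 to 284 higher and 56 to 296 lower). The cause was not tested. Esr1, never called, reversed to 0.0827 with limma on TPM (adjusted p = 0.708), to 0.0281 without mouse 1 (adjusted p = 0.886; leaving out single libraries gave -0.159 to 0.0281) and to 0.0844 in the permutation test on TPM. With the mouse as replicate block, 0 genes differed between digested and undigested uterus and 2558 between digested uterus and luminal epithelium, against 0 and 3100 without the pairing. The day comparison itself could not be blocked, since no mouse was sampled on both days. The design text of the series says that littermates were split between days, but the labels do not say which mice were littermates. Among lists, limma on TPM called 6 smooth muscle genes higher and 0 lower, and 7 stromal genes higher and 3 lower, and limma voom called 7 genes of the unfolded protein response lower. In simulated data, changed only in genes with ample counts, 66% of 2-fold day changes were recovered. A missing call therefore does not show an equal level.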

Other observations

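Other genes outside the lists stood out by the size of their change. They were picked, after their values were seen, from the ranks that followed the 12 at either end. The same conditions applied, groups that did not overlap among them. Maob, monoamine oxidase B, was at 16.7, 13.3, 19.2 and 14.1 CPM at D0.5 and 295, 365 and 238 CPM at D3.5 (log2 fold change 4.24 ± 0.22 SE, adjusted p = 5.9e-08). Mest, an imprinted gene, was at 5.06, 4.06, 4.55 and 3.14 CPM at D0.5 and 78.5, 80.9 and 73.7 CPM at D3.5, and both groups were tight (4.19 ± 0.17, adjusted p = 7.8e-09). Lamc3, a laminin chain of basement membranes, rose by 4.05 ± 0.28, from 2.61 to 6.76 CPM in the D0.5 libraries to 75.6 to 81.5 CPM at D3.5. Ngfr, a neurotrophin receptor, was at 26.1, 14.5, 18.2 and 19.6 CPM at D0.5 and 158, 129 and 200.3 CPM at D3.5.

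Among the genes that fell, Sftpd, a collectin of mucosal defence, was at 240.1, 365, 446 and 365 CPM at D0.5 and below 1 CPM in each D3.5 library (log2 fold change -9.78 ± 0.54 SE, adjusted p = 6.9e-08). Dmbt1, a mucosal scavenger protein, was at 34.7, 110.5, 227 and 157 CPM at D0.5 and at 0.0643, 0.552 and 0 CPM at D3.5, with mouse 1 the lowest of its day. Gabrp, a GABA receptor subunit of the uterus, was at 150.3, 403, 214 and 315 CPM at D0.5 and 0.386, 1.44 and 0.357 CPM at D3.5. Slc34a2, a phosphate transporter, was at 196, 155, 200.4 and 116 CPM at D0.5 and 0.515, 0.552 and 0.382 CPM at D3.5. For these 4 as well, groups that did not overlap were a condition of the choice.

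Markers of sperm, of preimplantation embryos and of stratified cervical epithelium were low in each library, with summed levels of 0.65 to 1.86, 6.6 to 14.9 and 8.3 to 30.9 CPM. Of 7 mesothelial markers 1 fell, Rspo1 (lost without mouse 8, 9, 14 or 16), and of 7 nerve and glia markers 1 rose, Uchl1 (lost without mouse 1, 8, 14 or 16). The element of the unfolded protein response, a CCAAT box and a CCACG box 9 bases apart, lay in 7 of 16 promoters of that list (43.8%) and in 0.13% of all promoters, and those 7 genes were not called between days. The sterol, oestrogen and progesterone response elements were found in 0 of 12, 0 of 20 and 0 of 16 promoters of their lists, against 0.0851%, 0.0666% and 0.463% of all.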
